A study of Mus musculus with 10 samples.

Results

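Imprinted genes are expressed from the copy of 1 parent, and 47 protein-coding genes of this kind were read out of the gene tables of naïve, knockout and primed mouse embryonic stem cells (ESCs). The listed genes were chosen by name as known imprinted genes, and the rule uses no measured value, although earlier results of these data were known when it was set. Of the 47 listed genes, 38 reached at least 1 TPM (an abundance corrected for transcript length and scaled within each library) in at least 2 of the 10 libraries and were tested, as were 12060 of all 21853 genes. The 5 lines had 2 libraries each. Naïve ESCs were wild-type J1, a male mouse ESC line. AKO was J1 with AMPK, the energy-sensing kinase, knocked out through Prkaa1, the gene of its catalytic subunit alpha 1. GKO was J1 with Gys1, the glycogen synthase gene, knocked out, and DKO carried the knockouts of AMPK and GYS1 together. These 4 lines grew with leukemia inhibitory factor at 1000 U/ml, the MEK inhibitor PD0325901 at 1 μM and the GSK3 inhibitor CHIR99021 at 3 μM. Primed ESCs (PJ1) were wild-type J1 kept without these agents in bFgf at 10 ng/ml and Activin at 20 ng/ml. The study's methods describe AKO as cells sorted after transfection, and picked colonies for other knockouts, and the sources used here do not say how many clones a library represents. No source says that the 2 libraries of a line came from separate cultures, so that the tests measure the spread between these libraries, which may be technical.

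An imprint is a DNA methylation mark that is laid down in the egg or the sperm and kept on that parent's copy after fertilization, while the rest of the genome is demethylated and remethylated. Most imprinted genes lie in clusters, in which 1 methylated control region sets the expression of several genes, some from the maternal and some from the paternal copy. In the pre-implantation embryo and in ESCs, the zinc finger proteins ZFP57 and ZFP445 bind the methylated copy and recruit TRIM28, SETDB1 and the DNA methyltransferase DNMT1, which keep the mark. Many imprinted genes act on growth of the fetus and placenta, and ESC lines are known to gain or lose imprints in culture. The tables hold 1 value per gene, in which the copies of the parents and the transcripts of a gene are pooled, so that an expression level gives no information on which copy was active. Several members are imprinted only in some tissues or for some transcripts, among them Ube3a, Gatm, Inpp5f, Pon2 and Grb10.

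The labelled cell types were checked on marker genes. The summed level of 12 naïve pluripotency markers was 1830 to 2101 TPM in the 8 naïve, AKO, DKO and GKO libraries and 176 and 184 TPM in the primed libraries, and that of 12 primed markers was 120.3 to 158 TPM against 565 and 546 TPM. Prkaa1 mRNA was lower in the lines labelled as AMPK knockouts, with 7.24 and 6.94 TPM (AKO) and 2.303 and 2.04 TPM (DKO), than in the naïve libraries, with 15.5 and 16.6 TPM, and those of GKO, with 12.2 and 11.96 TPM. Gys1 mRNA was at 11.5 and 10.8 TPM in the naïve libraries, 9.695 and 9.98 TPM in GKO and 12.1 and 11.7 TPM in DKO, and its level does not check a knockout made by small changes in an exon. The GKO and DKO libraries differed from the others in a further way: the Y-linked gene Eif2s3y was listed at 0 in the naïve, AKO and primed libraries, and stood at 41.5 and 37.97 TPM in GKO and 37.3 and 37.4 TPM in DKO. Any difference of GKO or DKO from the other lines is therefore also a difference between cells with and without Y-linked mRNA, and the share of the knockout and of the history of the cells in it cannot be told apart.

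The promoters of 40 of the 47 listed genes were in the RefSeq table of promoter windows used (GRCm38.p6, 250 bases before to 50 bases after each start). The letters TGCCGC, which ZFP57 binds when they are methylated, were searched on both strands. They stood in at least 1 window of 13 of the 40 genes (32.5%), and in 13.1% of the 27025 genes of the table. The windows of the listed genes also held more CpG (a median of 16 per window, against 7 over all windows), and several of these genes have more than 1 window. A match is a string of letters and not a site of binding. The windows of 4 members with large differences in GKO, DKO or primed ESCs are shown as examples 5′ to 3′, each on its own strand, with the searched letters in capitals (they read GCGGCA where the match is on the other strand). Mest, Nnat and Snrpn are expressed from the paternal copy and Phlda2 from the maternal copy, and 3 of the 4 windows of Snrpn in the table, not shown, had no match. The 4 windows were picked after their values were seen and do not stand for the list. Of the 34 tested members with a window, 11 had a match and 23 had none. In DKO, 2 of the 11 were called higher and 4 lower, as were 5 and 6 of the 23, and in GKO the counts were 1 and 5 of the 11 and 9 and 5 of the 23. Over all genes tested, 21.7% were called higher and 24.3% lower in DKO, and 24.7% and 27.1% in GKO. Pon3, 1 of the 11, was tested only because its GKO libraries reached 1 TPM. These counts were not tested against each other.
Mest (chr6:30737800-30738099, plus strand): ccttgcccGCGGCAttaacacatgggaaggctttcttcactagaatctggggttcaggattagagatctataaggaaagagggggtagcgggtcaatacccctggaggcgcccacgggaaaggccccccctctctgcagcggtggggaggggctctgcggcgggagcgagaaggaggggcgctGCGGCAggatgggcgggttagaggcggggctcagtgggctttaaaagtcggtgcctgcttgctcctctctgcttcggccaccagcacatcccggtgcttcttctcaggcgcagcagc
Nnat (chr2:157559828-157560127, plus strand): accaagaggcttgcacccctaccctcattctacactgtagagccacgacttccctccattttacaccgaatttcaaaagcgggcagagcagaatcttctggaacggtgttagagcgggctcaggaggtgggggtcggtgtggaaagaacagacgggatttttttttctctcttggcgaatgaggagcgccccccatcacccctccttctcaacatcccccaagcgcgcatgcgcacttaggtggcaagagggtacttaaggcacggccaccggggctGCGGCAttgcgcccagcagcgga
Snrpn (chr7:60005150-60005449, minus strand): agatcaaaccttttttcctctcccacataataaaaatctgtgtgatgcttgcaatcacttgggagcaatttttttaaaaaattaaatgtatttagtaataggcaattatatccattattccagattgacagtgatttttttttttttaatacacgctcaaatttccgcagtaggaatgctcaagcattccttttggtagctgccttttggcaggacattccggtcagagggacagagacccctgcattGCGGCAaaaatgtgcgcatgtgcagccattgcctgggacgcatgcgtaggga
Phlda2 (chr7:143502475-143502774, minus strand): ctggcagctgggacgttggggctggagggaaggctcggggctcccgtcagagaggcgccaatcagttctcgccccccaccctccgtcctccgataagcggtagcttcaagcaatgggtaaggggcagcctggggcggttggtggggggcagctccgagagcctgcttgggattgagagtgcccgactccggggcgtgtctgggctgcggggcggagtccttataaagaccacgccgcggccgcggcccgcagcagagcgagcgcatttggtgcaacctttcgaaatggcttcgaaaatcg

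The members spanned a wide range of levels. Gnas, Mest, Snrpn, Cd81, Impact, Slc38a4, Ube3a and Commd1 were above 30 TPM in every library, and 25 of the 38 tested members reached 1 TPM in all 10 libraries. Of the other 13, 4 passed the filter through 1 line alone: Gatm and Magel2 in primed ESCs, Pon3 in GKO and Dio3 in DKO. These 4 had to differ between lines in order to pass, so that their differences for that line, and their place in the counts of called members, are a description. The 9 members that were not tested were Asb4, Klf14, Nap1l5, Usp29, Zim1, Kcnq1, Rasgrf1, Rtl1 and Slc22a3. Their values lay below 0.5 TPM in every library, except for Asb4 in primed ESCs. Asb4 was the nearest to the filter from outside, at 1.57 and 0.565 TPM in primed ESCs, and Pon3 was the nearest from inside, at 1.78 and 1.84 TPM in GKO. Replicates of a line were close: the median member differed between the 2 libraries by 0.06 to 0.10 on the log2(TPM + 1) scale in the 4 naïve-medium lines and by 0.20 in primed ESCs, where the median over all genes was 0.13. The widest gap was that of Plagl1 in primed ESCs, at 9.76 and 1.84 TPM.

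**Figure D1:**
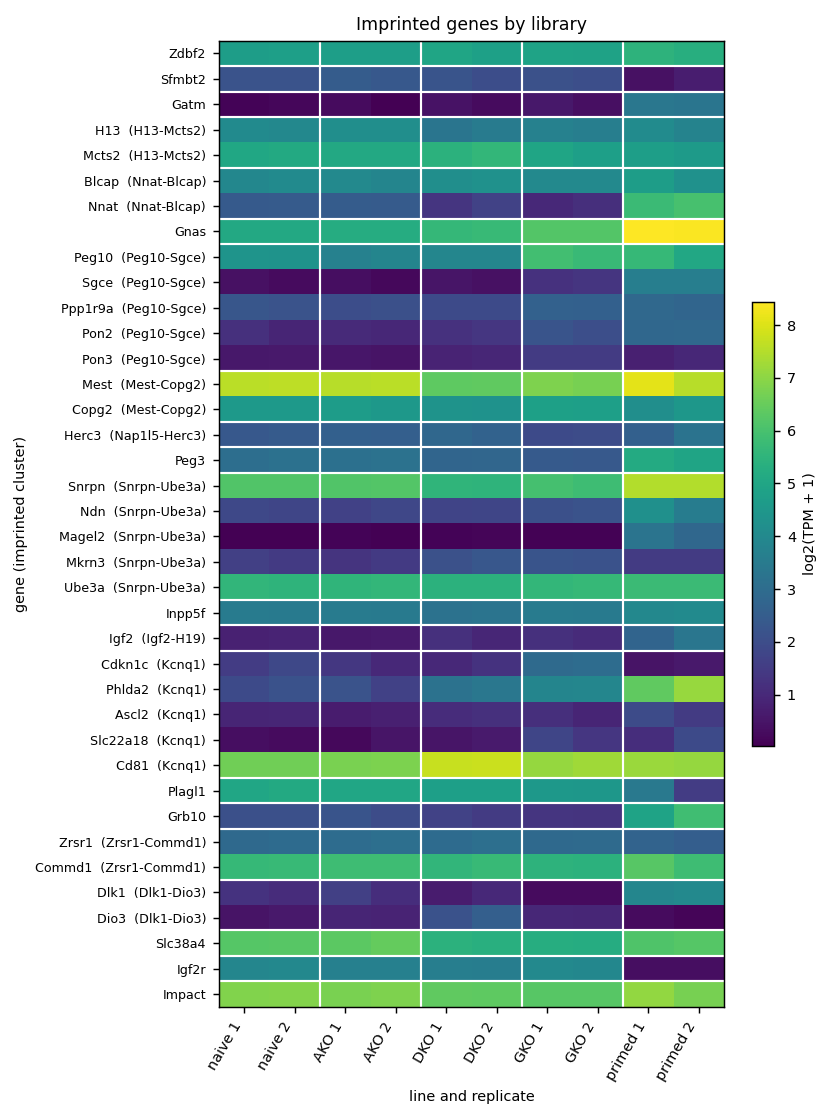
Level of the 38 tested imprinted genes in each of the 10 libraries, as log2(TPM + 1) in colour, with genes in rows by imprinted cluster (white lines between clusters) and libraries in columns by line. The naïve and AKO columns look alike. GKO departs from them in rows of several clusters, such as Peg10-Sgce and Kcnq1, and DKO in rows such as Cd81, Dio3 and Mest. The primed columns differ in most rows.

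All differences below are on the log2(TPM + 1) scale and understate the change of genes at low TPM. They come from 1 limma fit over the 12060 genes and 10 libraries, with a mean for each line, and a gene is called at a Benjamini-Hochberg adjusted p of 0.05. In GKO against naïve ESCs, 24 of the 38 tested members were called, 13 higher and 11 lower. Over all genes, 51.7% were called in this comparison, 24.7% higher and 27.1% lower. With a minimum difference of 0.5, 17 of the 38 members were called, against 19.9% of all genes with that minimum. The median size of the difference, whatever its sign, was 0.45 for the members and 0.24 for all genes tested. Of the 20 tested members known to be expressed from the paternal copy, 4 were higher and 8 lower, and of the 17 expressed from the maternal copy, 8 were higher and 3 lower. These 8 were Pon2, Pon3 and Ppp1r9a of the Peg10-Sgce cluster, Phlda2, Cdkn1c, Slc22a18 and Cd81 of the Kcnq1 cluster, and Gatm, which was under 1 TPM in both lines. Members of a cluster are not independent, so that counts by parental copy, here and below, give no result about the parental copies. All cells of a library are measured together, so that more RNA per cell and more cells that express a gene cannot be told apart.

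**Figure D2:**
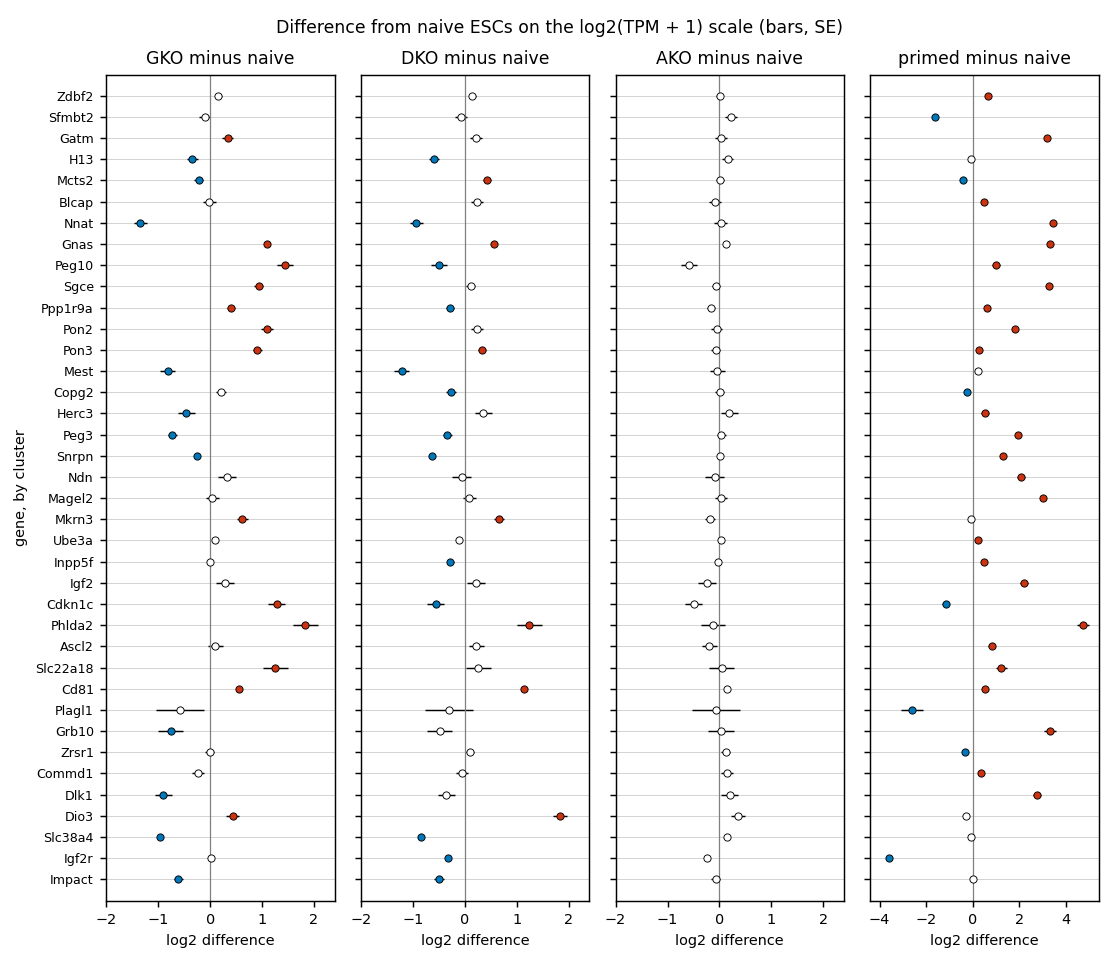
Difference of each line from naïve ESCs on the log2(TPM + 1) scale for the 38 tested members, with the standard error as a bar. Red points are called higher, blue points called lower (limma adjusted p under 0.05) and white points not called. Calls are in both directions in GKO and DKO, absent in AKO, and 25 of 32 are higher in primed ESCs (wider axis).

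A block of higher genes in GKO was the Peg10-Sgce cluster on proximal chromosome 6 (chr6:4672057-5433026, GRCm39). Its 5 tested members were called higher, 1 of which, Pon3, passed the filter on low values only through its GKO libraries. Peg10, a retrotransposon-derived gene that the placenta needs, stood at 19.9 and 19.6 TPM in the naïve libraries, 12.3 and 13.4 in those of AKO, 13.7 and 13.8 in those of DKO, 58.4 and 52.5 in those of GKO and 49.97 and 32.5 in the primed ones. No library of another naïve-medium line came near those of GKO, and the difference from naïve ESCs was 1.44 ± 0.16 (SE, limma adjusted p = 0.000109). Sgce, which encodes epsilon-sarcoglycan and starts beside Peg10 on the opposite strand, stood at 0.33 and 0.222 TPM in the naïve libraries and 1.36 and 1.51 TPM in GKO, a difference of 0.93 ± 0.09 (SE, limma adjusted p = 4.35e-05). Both are expressed from the paternal copy. The cluster's maternal genes were higher too. Pon2, a paraoxonase, rose from 1.31 and 0.869 TPM to 3.67 and 3.19 TPM (1.09 ± 0.11, SE, limma adjusted p = 7.49e-05). Its neighbour Pon3 rose from 0.478 and 0.514 TPM to 1.78 and 1.84 TPM (0.91 ± 0.08, SE, limma adjusted p = 4.73e-05). Ppp1r9a, which encodes the actin-binding protein neurabin, had a smaller difference of 0.40, with 3.82 and 3.497 TPM in the naïve libraries and 5.23 and 5.08 TPM in GKO. Genes of the region that are not on the member list also moved in GKO: Casd1, beside Sgce, was called at 0.41 and Bet1 at 0.41. The 10 tested non-member genes within 2 Mb of Peg10 had a median of 0.27, with Pdk4 the highest at 0.87, and Peg10 and Sgce lay above all 10 of them. Pon2 and Pon3 lay above all 11 around them. Ppp1r9a did not stand out from its region, with 5 neighbours below it and 5 above. The median of chromosome 6 as a whole was 0.14. The cause of the regional shift was not tested.

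A second group of higher genes lay in the Kcnq1 cluster on distal chromosome 7 (chr7:142520564-143056887, GRCm39), whose members are expressed from the maternal copy. Phlda2, which is known to restrain growth of the placenta, had the largest rise of all members in GKO on the log2(TPM + 1) scale. With a pseudocount of 0.1 in place of 1 it rose by 2.102, less than Slc22a18 of the same cluster (2.60). It stood at 2.77 and 3.48 TPM in the naïve libraries, 3.49 and 2.17 in those of AKO, 8.17 and 9.29 in those of DKO, 13.4 and 13.9 in those of GKO and 82.6 and 142 in the primed ones. The GKO libraries lay above those of DKO, and both above every naïve and AKO library. The difference between GKO and naïve ESCs was 1.83 ± 0.24 (SE, limma adjusted p = 0.000265). Cdkn1c encodes p57, an inhibitor of cyclin-dependent kinases. It was at 1.91 and 2.63 TPM in the naïve libraries, 1.65 and 0.999 in those of AKO, 0.999 and 1.41 in those of DKO, 6.66 and 7.103 in those of GKO and 0.387 and 0.518 in the primed ones, and GKO differed from naïve ESCs by 1.28 ± 0.16 (SE, limma adjusted p = 0.00022). Slc22a18, a membrane transporter, rose from 0.274 and 0.202 TPM to 2.42 and 1.55 TPM (1.25 ± 0.24, SE, limma adjusted p = 0.00228). Cd81, a tetraspanin of the cell surface, went from 96.8 and 96.9 TPM to 138 and 149 TPM, a difference of 0.56 ± 0.05 (SE, limma adjusted p = 2.87e-05). Ascl2, a trophoblast transcription factor in the same cluster, was not called (0.88 and 0.904 TPM in the naïve libraries and 1.22 and 0.855 TPM in GKO). The non-member genes around this cluster did not shift with it. The 24 tested within 2 Mb of Phlda2 had a median of -0.03, all below Phlda2, and the 30 around Cdkn1c had a median of -0.13, all below Cdkn1c.

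**Figure D3:**
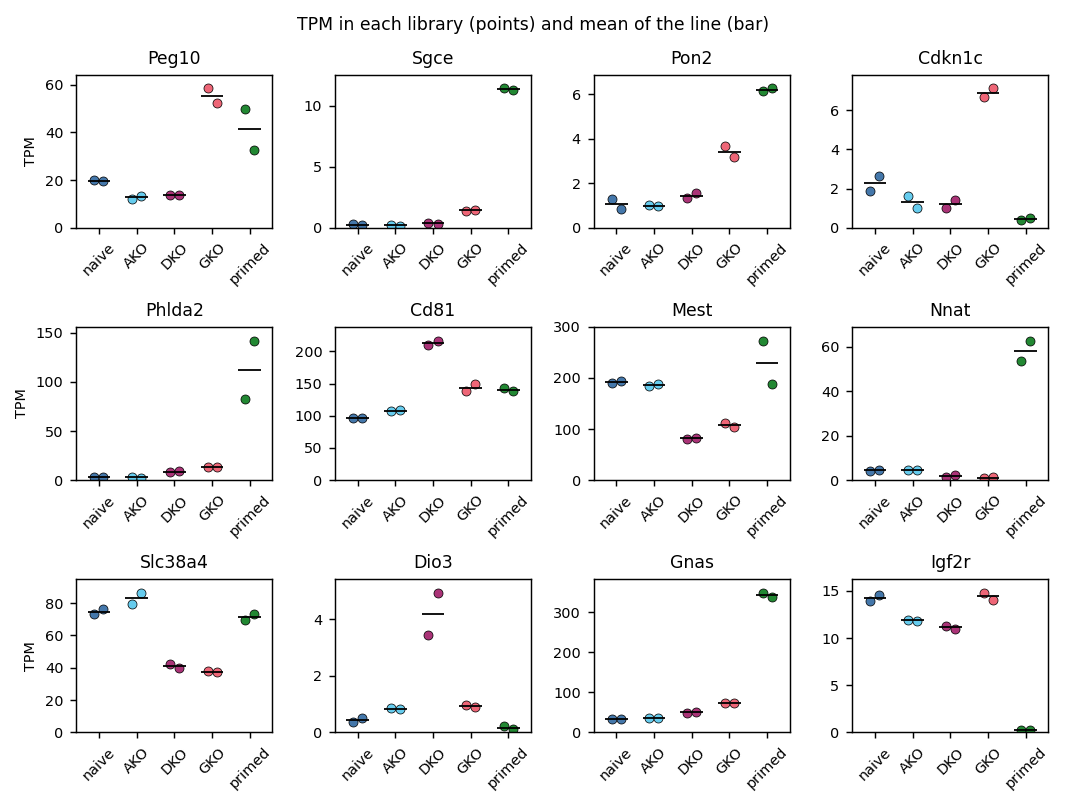
TPM of 12 members in each library (points, 2 per line) with the mean of the line as a bar, on linear axes that start at 0. Peg10, Sgce, Pon2 and Cdkn1c are higher in GKO than in naïve, AKO and DKO, Cd81 and Dio3 are highest in DKO, and Mest, Nnat and Slc38a4 are lower in both GKO and DKO than in naïve ESCs and AKO.

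Gnas, which encodes the stimulatory G-protein alpha subunit and has transcripts of both parental kinds, stood at 33.2 and 33.7 TPM in the naïve libraries, 36.4 and 36.4 in those of AKO, 48.2 and 51.5 in those of DKO, 72.6 and 72.6 in those of GKO and 348 and 338 in the primed ones. The lines were thus ordered naïve, AKO, DKO, GKO and primed with no overlap between neighbours, although the step from naïve ESCs to AKO (0.12) was not called. The difference between GKO and naïve ESCs was 1.09 ± 0.04 (SE, limma adjusted p = 5.83e-07), and that of DKO was 0.56 ± 0.04 (SE, limma adjusted p = 2.68e-05). Its non-member neighbours on distal chromosome 2 were higher as well, with a median of 0.56 in GKO and 0.44 in DKO over 23 genes. Of these, 20 lay below Gnas in GKO and 13 in DKO. Mkrn3, which encodes a makorin ubiquitin ligase of the Snrpn-Ube3a cluster, was the remaining member with a rise of at least 0.5 in GKO, from 2.103 and 1.76 TPM to 3.595 and 3.39 TPM (0.62 ± 0.10, SE, limma adjusted p = 0.000974).

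The 8 paternal members that fell in GKO lay in separate loci. Nnat, which encodes the membrane proteolipid neuronatin, stood at 4.31 and 4.496 TPM in the naïve libraries, 4.61 and 4.39 in those of AKO, 1.49 and 2.199 in those of DKO, 1.005 and 1.25 in those of GKO and 53.6 and 62.7 in the primed ones, and fell in GKO by 1.35 on the log2 scale (SE 0.13, limma adjusted p = 4.93e-05). Nnat lies within Blcap on the other strand and shares exon sequence with it, and Blcap itself was not called, at 14.3 and 15.8 TPM in the naïve libraries and 14.8 and 14.8 TPM in GKO. Mest, which encodes a hydrolase-fold protein of the growth-related imprinted set, was at 189 and 194 TPM in the naïve libraries, 184 and 189 in those of AKO, 80.5 and 83.1 in those of DKO, 112 and 104 in those of GKO and 273 and 187 in the primed ones. Both GKO and DKO lay below all other libraries. Its difference in GKO was -0.82 ± 0.14 (SE, limma adjusted p = 0.00114), the lowest among itself and the 21 non-member genes tested within 2 Mb. Copg2, which overlaps the 3′ end of Mest on the other strand, was not called in GKO (0.20). Slc38a4, an amino acid transporter, stood at 73.3 and 76.1 TPM in the naïve libraries, 79.5 and 86.3 in those of AKO, 42.3 and 39.5 in those of DKO, 38.1 and 37.2 in those of GKO and 69.2 and 73.3 in the primed ones, with a difference of -0.97 ± 0.06 (SE, limma adjusted p = 4.99e-06) in GKO. It was the lowest of its region, in which 33 other genes had a median of -0.12.

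Peg3, a zinc finger gene, went from 7.49 and 8.05 TPM in the naïve libraries to 4.36 and 4.19 TPM in GKO (-0.73 ± 0.08, SE, limma adjusted p = 0.000143). Impact, which encodes an inhibitor of the amino acid sensor GCN2, went from 115 and 116 TPM to 74.9 and 75.4 TPM (-0.61 ± 0.09, SE, limma adjusted p = 0.000736). Both had GKO libraries that lay below all libraries of the other lines. Grb10, a maternal member that encodes an adaptor that dampens insulin and IGF receptor signalling, had 3.204 and 3.22 TPM in the naïve libraries and 1.54 and 1.45 TPM in GKO. Its difference of -0.76 ± 0.24 (SE, limma adjusted p = 0.0276) was not called without naïve replicate 1 (-0.76), naïve replicate 2 (-0.75), GKO replicate 1 (-0.78) or GKO replicate 2 (-0.73), nor with no filter on low values, with adjusted p from 0.0649 to 0.106. Dlk1, a transmembrane protein related to Notch ligands, was at 1.41 and 1.16 TPM in the naïve libraries and 0.22 and 0.214 TPM in GKO, with a difference of -0.91 ± 0.17 (SE, limma adjusted p = 0.00181). Its neighbours on distal chromosome 12 were mostly lower in GKO. The 24 non-member genes within 2 Mb of Dlk1 had a median of -0.64, 19 of them below 0, while the same genes had a median of 0.07 in DKO. Relative to that regional median, the difference of Dlk1 in GKO was -0.27. Smaller falls were called for the paternal members Mcts2 (-0.23) and Snrpn (-0.26) and the maternal members H13 (-0.34) and Herc3 (-0.46). Smaller rises were called for Gatm (0.33) and Dio3 (0.43), both under 1 TPM in these libraries. Gatm was at 0.071 and 0.127 TPM in the naïve libraries and 0.482 and 0.293 TPM in GKO. Dio3 was at 0.376 and 0.503 TPM in the naïve libraries and 0.966 and 0.91 TPM in GKO.

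**Figure D4:**
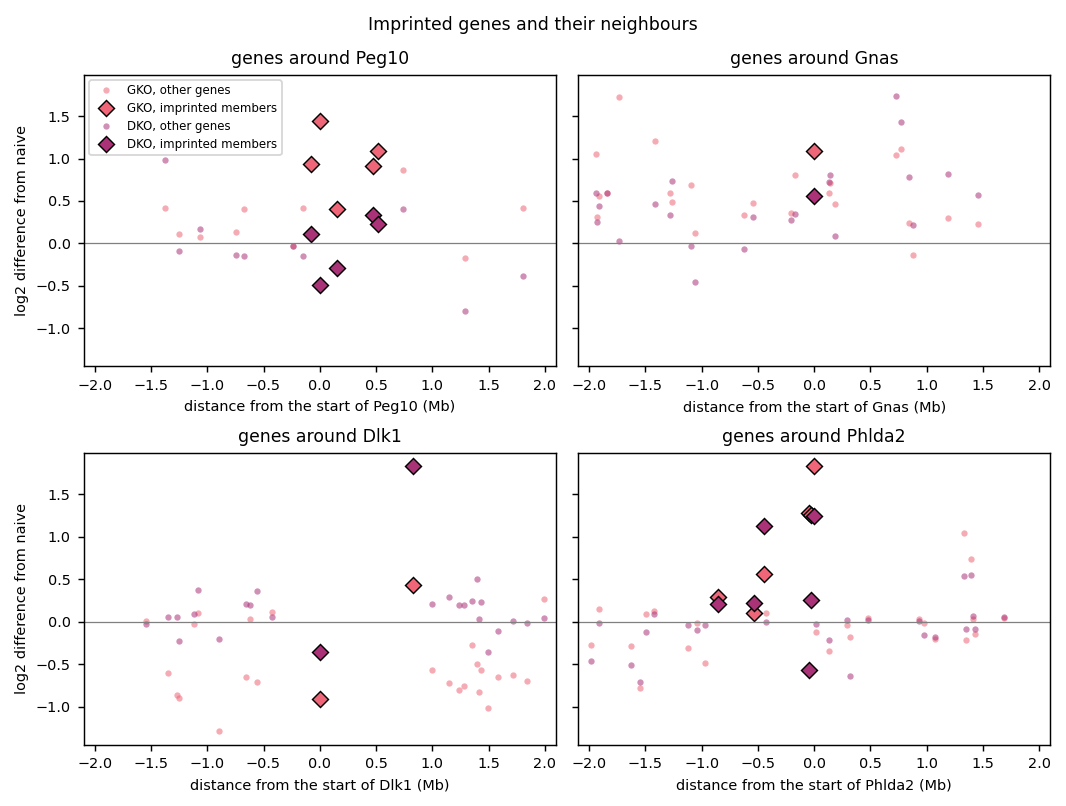
Difference from naïve ESCs on the log2(TPM + 1) scale in GKO (pink) and DKO (purple) against distance in Mb from the start of Peg10, Gnas, Dlk1 or Phlda2, for imprinted members (diamonds) and the other tested genes (dots). Around Dlk1 most dots lie below 0 in GKO (median -0.64) and not in DKO (0.07), around Gnas they lie above 0 in both (0.56 and 0.44), and around Phlda2 they lie near 0 (-0.03 and -0.04).

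Some imprinted genes mark extra-embryonic or differentiated cells, so the marker lists of such cells are given beside these results. The 8 trophoblast markers summed to 30.1 and 29.9 TPM in the naïve libraries, 30.8 and 30.1 TPM in those of DKO and 48.3 and 49.7 TPM in those of GKO. In GKO this sum consisted mainly of Tfap2c (23.2 and 24.3 TPM, against 6.68 and 6.29 TPM in the naïve libraries), Eomes and Cdx2, while Elf5 was at 0.182 and 0.018 TPM and the placental genes Prl3d1 and Tpbpa were listed at 0 in every library. The 8 fibroblast markers summed to 3.77 and 3.19 TPM in the naïve libraries and 9.60 and 10.8 TPM in GKO, of which Thy1 made up 7.14 and 8.48 TPM, with Dcn and Postn listed at 0. The 6 neural markers summed to 63.0 and 64.8 TPM in the naïve libraries and 103.8 and 103.0 TPM in GKO, nearly all of it Tubb3. Endoderm markers summed to at most 2.22 TPM, mesoderm markers to at most 2.38 TPM and 2-cell-like markers to at most 1.08 TPM in the 4 naïve-medium lines. The part of these cells in the differences above was not tested.

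In DKO against naïve ESCs, 20 of the 38 members were called, 7 higher and 13 lower, where 46.0% of all genes were called, 21.7% higher and 24.3% lower. With the minimum difference of 0.5, 11 members were called, against 16.1% of all genes. The same naïve libraries serve as the control of GKO and DKO, so that their values are given side by side and their likeness is not a result. Dio3, the deiodinase that inactivates thyroid hormone, was tested only because its DKO libraries passed the filter on low values, so that a difference of DKO was set by the filter. It stood at 0.376 and 0.503 TPM in the naïve libraries, 0.868 and 0.811 in those of AKO, 3.42 and 4.92 in those of DKO, 0.966 and 0.91 in those of GKO and 0.217 and 0.116 in the primed ones. Both DKO libraries lay above all others, and the fitted difference, given as a description, was 1.83 ± 0.13 (SE, limma adjusted p = 1.61e-05). Its 32 tested neighbours had a median of 0.20, all below Dio3. Phlda2 rose by 1.24 ± 0.24 (SE, limma adjusted p = 0.00272) in DKO. Cd81 was at 211 and 217 TPM in DKO, above every library of the other lines, with a difference of 1.13 ± 0.05 (SE, limma adjusted p = 1.14e-06). Its 47 tested neighbours had a median of -0.02, all below it. Mkrn3 rose to 3.32 and 3.97 TPM (0.66 ± 0.10, SE, limma adjusted p = 0.000799). The Kcnq1 cluster did not move as 1 block in DKO, since Cdkn1c was lower there, at -0.56 (limma adjusted p = 0.018). That call was lost without naïve replicate 2 (-0.40, adjusted p = 0.131) and without DKO replicate 1 (-0.43, adjusted p = 0.123).

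Lower in DKO were 8 of the 20 paternal and 5 of the 17 maternal members. Mest had the largest, with -1.22 ± 0.14 (SE, limma adjusted p = 0.000171), and was below all 21 of its tested neighbours, whose median was -0.27. Nnat differed by -0.94 ± 0.13 (SE, limma adjusted p = 0.000437) and Slc38a4 by -0.85 ± 0.06 (SE, limma adjusted p = 1.23e-05). Snrpn, which encodes the SmN protein of the spliceosome, was at 71.2 and 69.9 TPM in the naïve libraries, 70.2 and 72.4 in those of AKO, 45.3 and 44.5 in those of DKO, 61.3 and 56.1 in those of GKO and 177 and 175 in the primed ones. The DKO libraries were the lowest of all, and the difference from naïve ESCs was -0.64 ± 0.05 (SE, limma adjusted p = 2.31e-05). H13, which encodes the signal peptide peptidase and is expressed from the maternal copy, fell from 15.7 and 14.7 TPM to 8.96 and 10.6 TPM (-0.59 ± 0.10, SE, limma adjusted p = 0.00177). Mcts2, a paternal retrogene that sits in an intron of H13 on the same strand, was higher in DKO, at 42.2 and 47.9 TPM against 32.3 and 34.1 TPM, by 0.43. Mcts2 is a copy of Mcts1 on the X chromosome, and reads may have been divided between the 2 copies, so that its value is uncertain. Peg10, at -0.49, and Ppp1r9a, at -0.29, were called lower in DKO, while Sgce (0.11) and Pon2 (0.23) were not called and Pon3 was called higher (0.33). Further falls under 0.5 were called for Copg2, Peg3, Inpp5f, Igf2r and Impact, from -0.49 for Impact to -0.26 for Copg2.

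In the fit over all 10 libraries, the remaining members were not called against naïve ESCs among the lines in naïve medium. In a fit of the GKO and naïve libraries alone, 29 of the 38 members and 60.5% of all genes were called. With DKO in place of GKO, these were 26 members and 52.9% of all genes. Not called in GKO, DKO or AKO against naïve ESCs in the fit over all libraries were Ascl2, Blcap, Commd1, Igf2, Magel2, Ndn, Plagl1, Sfmbt2, Ube3a, Zdbf2 and Zrsr1. Plagl1 was at 31.4 and 34.2 TPM in the naïve libraries and 22.1 and 21.2 TPM in GKO, without overlap, a difference of -0.57. Its standard error was the largest of the members, and the primed libraries, at 9.76 and 1.84 TPM, enter it. Zdbf2, a gene whose early embryonic imprint sets growth after birth, was at 25.1 and 26.5 TPM in the naïve libraries, 26.01 and 25.8 in those of AKO, 30.2 and 27.2 in those of DKO, 29.1 and 28.4 in those of GKO and 43.2 and 38.8 in the primed ones. Its differences in GKO and DKO were 0.15 and 0.14. Ube3a, the ubiquitin ligase of Angelman syndrome, was at 46.8 and 44.5 TPM in the naïve libraries, 45.9 and 47.8 in those of AKO, 41.9 and 42.03 in those of DKO, 47.2 and 50.1 in those of GKO and 52.9 and 53.2 in the primed ones, with 0.09 in GKO and -0.12 in DKO. Commd1, a gene that hosts the imprinted Zrsr1 in an intron, had 49.8 and 51.3 TPM in the naïve libraries and 42.8 and 42.3 TPM in those of GKO. Reads of Zrsr1 and of its parent gene Zrsr2 may have been divided between them, so that the value of Zrsr1 is uncertain. Igf2 was low in all 8 libraries of these lines, between 0.497 and 1.3 TPM, and Igf2r, at 14.8 and 14.1 TPM in GKO, was not called there (0.01).

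In AKO against naïve ESCs, 0 of the 38 members were called by limma, where 27 of 12060 genes (0.224%) were called, 0.0663% higher and 0.158% lower. That count over all genes was 1 to 3 when 1 naïve, AKO, DKO or GKO library was left out, 120 without primed replicate 1 and 126 without primed replicate 2. At an unadjusted p under 0.05, 7 members and 1231 genes passed. The largest difference was that of Peg10, at -0.59 ± 0.16 (SE, limma adjusted p = 0.216). Its 2 AKO libraries, at 12.3 and 13.4 TPM, lay below both naïve libraries, at 19.9 and 19.6 TPM, and close to those of DKO. Peg10 was called when either primed library was left out of the fit, with adjusted p = 0.0123 without primed replicate 1 and 0.0122 without primed replicate 2. Cdkn1c was at 1.65 and 0.999 TPM in AKO and 1.91 and 2.63 TPM in the naïve libraries, a difference of -0.50 (limma adjusted p = 0.308). A difference that misses the threshold does not show that the lines were alike. The standard error of the 38 members ranged from 0.04 for Gnas to 0.46 for Plagl1.

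GKO and DKO both lack GYS1 and differ in AMPK by their labels. Between them, 21 of the 38 members were called, 14 higher and 7 lower in GKO, where 43.5% of all genes were called (21.2% higher and 22.4% lower). With the minimum difference, 13 members and 15.1% of all genes were called. All 5 tested members of the Peg10-Sgce cluster were higher in GKO. Peg10 was higher in GKO by 1.93 ± 0.16 (SE, limma adjusted p = 3.51e-05), Pon2 by 0.85 ± 0.11 (SE, limma adjusted p = 0.00039), Sgce by 0.82 ± 0.09 (SE, limma adjusted p = 0.000122) and Ppp1r9a by 0.69 ± 0.07 (SE, limma adjusted p = 0.000142). For Pon3 the difference was 0.58 ± 0.08 (SE, limma adjusted p = 0.00076), a description, since Pon3 passed the filter only through GKO. The 10 non-member genes around Peg10 had a median of 0.37 in this comparison. In the Kcnq1 cluster the genes did not go together: Cdkn1c was higher in GKO by 1.84 ± 0.16 (SE, limma adjusted p = 4.61e-05), and Cd81 differed by -0.57 ± 0.05 (SE, limma adjusted p = 3.84e-05). Phlda2, at 0.59, did not pass the threshold (limma adjusted p = 0.0719). Slc22a18 was higher in GKO by 0.99 ± 0.24 (SE, limma adjusted p = 0.00957), a call that was lost without DKO replicate 1 (0.94, adjusted p = 0.0551) and without GKO replicate 1 (0.78, adjusted p = 0.0764).

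Gnas was higher in GKO than in DKO by 0.53 ± 0.04 (SE, limma adjusted p = 3.58e-05). Dio3 had the largest difference in the other direction, -1.40 ± 0.13 (SE, limma adjusted p = 6.56e-05), next to a regional median of -0.79. It passed the filter only through DKO, so that this difference is a description. Herc3, which encodes a HECT-domain protein, was at 2.76 and 2.92 TPM in GKO and 6.17 and 5.37 TPM in DKO (-0.81 ± 0.16, SE, limma adjusted p = 0.00406), and Mcts2 differed by -0.65 ± 0.08 (SE, limma adjusted p = 0.00039). Dlk1 differed by -0.55 ± 0.17 (SE, limma adjusted p = 0.0262). Since the genes around Dlk1 had a median of -0.68, the difference relative to the region was 0.13, that is, of the opposite sign. The call of Dlk1 was also lost with no filter on low values (adjusted p = 0.0593) and without DKO replicate 2 (-0.38, adjusted p = 0.176), GKO replicate 1 (-0.55, adjusted p = 0.0971) or GKO replicate 2 (-0.54, adjusted p = 0.0982).

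DKO and AKO both carry the AMPK knockout and differ in GYS1 by their labels. Their Prkaa1 mRNA was not equal, with both DKO libraries below both AKO libraries, as given above. Of the 38 members, 19 were called between them, 8 higher and 11 lower in DKO, where 46.3% of all genes were called (22.4% higher and 23.9% lower), or 10 members and 16.0% of all genes with the minimum difference. The values were close to those of DKO against naïve ESCs, with which this comparison shares the DKO libraries. Dio3 was higher in DKO by 1.48 ± 0.13 (SE, limma adjusted p = 4.28e-05), Phlda2 by 1.36 ± 0.24 (SE, limma adjusted p = 0.00166), Cd81 by 0.98 ± 0.05 (SE, limma adjusted p = 3.02e-06) and Mkrn3 by 0.85 ± 0.10 (SE, limma adjusted p = 0.000214). The value of Dio3, which passed the filter only through DKO, is a description. In the other direction, Mest differed by -1.18 ± 0.14 (SE, limma adjusted p = 0.000197), Slc38a4 by -1.001 ± 0.06 (SE, limma adjusted p = 5.81e-06) and Nnat by -0.96 ± 0.13 (SE, limma adjusted p = 0.000368). H13 (-0.75) and Snrpn (-0.65) were lower too, with limma adjusted p of 0.00049 and 1.81e-05. Dlk1, at 0.581 and 0.997 TPM in the libraries of DKO and 2.11 and 1.19 TPM in those of AKO, was called at -0.56 (limma adjusted p = 0.0227), which was lost with no filter on low values (adjusted p = 0.0523), in a fit of these libraries alone (0.0504) and without AKO replicate 1 (-0.30, adjusted p = 0.155) or DKO replicate 1 (-0.39, adjusted p = 0.156).

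Whether loss of GYS1 went with the same difference in lines without and with the AMPK knockout was tested as the interaction, GKO minus naïve less DKO minus AKO. It was called for 13 of the 38 members, 10 positive and 3 negative, and for 25.8% of all genes, 12.8% positive and 13.1% negative. Without primed replicate 1 or primed replicate 2 it was called for 22 members and for 37.3% of all genes. The largest positive values were those of Cdkn1c, 1.34 ± 0.23 (SE, limma adjusted p = 0.0033), and Peg10, 1.34 ± 0.22 (SE, limma adjusted p = 0.00315). Pon2 (0.80), Sgce (0.75), Gnas (0.65), Ppp1r9a (0.53) and Pon3 (0.51) followed. Pon3 passed the filter only through GKO and Dio3 only through DKO, so that their values in this term are a description. The call of Pon3 was lost without naïve replicate 1, AKO replicate 1, DKO replicate 1 or GKO replicate 2 and with a pseudocount of 0.1 (adjusted p from 0.0523 to 0.0598). The non-member neighbours of the Peg10-Sgce members had a median of 0.27 to 0.31 in the same term. The median was -0.62 around Dio3, 0.10 around Gnas and -0.002 around Cdkn1c. The negative values were those of Dio3, -1.05 ± 0.18 (SE, limma adjusted p = 0.00392), Mcts2, -0.64 ± 0.12 (SE, limma adjusted p = 0.00532), and Cd81, -0.42 ± 0.07 (SE, limma adjusted p = 0.00275). For Phlda2, Mest, Nnat, Slc38a4 and Impact, which moved in GKO and in DKO, the interaction was not called, with values from -0.38 for Nnat to 0.47 for Phlda2.

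Primed ESCs differed from naïve ESCs in 32 of the 38 members, 25 higher and 7 lower, where 80.0% of all genes were called, 37.4% higher and 42.5% lower. With a minimum difference of 1, 18 members and 27.8% of all genes were called. The median difference was 0.53 for the members and -0.05 for all genes tested. Of the 17 maternal members, 13 were higher and 3 lower, and of the 20 paternal members, 11 were higher and 4 lower. The medium, the matrix and the cell state differ together between these lines and cannot be told apart. Phlda2 rose by 4.73 ± 0.24 (SE, limma adjusted p = 1.23e-07), to 82.6 and 142 TPM, the largest rise on this scale. With a pseudocount of 0.1 it rose by 5.08, less than Magel2 (5.86) and Gatm (5.54), which were near 0 in naïve ESCs. Nnat rose from 4.31 and 4.496 TPM to 53.6 and 62.7 TPM, by 3.45 ± 0.13 (SE, limma adjusted p = 1.69e-08). Gnas, by 3.32 ± 0.04 (SE, limma adjusted p = 4.78e-11), became the member with the highest level in primed ESCs. Grb10 was at 29.4 and 57.1 TPM, a rise of 3.32 ± 0.24 (SE, limma adjusted p = 1.49e-06). All 5 tested members of the Peg10-Sgce cluster were called higher in primed ESCs, as were their neighbours in part. The 10 non-member genes around Peg10 had a median of 0.18. Sgce lay above all 10 around it, while 4 of 10 lay above Peg10 and 4 of 10 above Ppp1r9a. Of the 11 around Pon2 and Pon3, 2 lay above Pon2 and 4 above Pon3. Sgce rose to 11.4 and 11.3 TPM by 3.28 ± 0.09 (SE, limma adjusted p = 1.99e-09) and Pon2 to 6.17 and 6.26 TPM by 1.80 ± 0.11 (SE, limma adjusted p = 4.74e-07). Peg10 had a smaller rise of 0.99, with primed libraries at 49.97 and 32.5 TPM that did not exceed those of GKO.

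Genes of the Snrpn-Ube3a cluster, which is deleted or silenced in Prader-Willi and Angelman syndromes, were higher in primed ESCs in 4 of 5 members. Magel2 went from 0.033 and 0.020 TPM to 8.58 and 6.11 TPM by 3.01 ± 0.12 (SE, limma adjusted p = 3.5e-08), a description, since it passed the filter only through primed ESCs. Ndn, which like Magel2 encodes a MAGE-family protein, went from 2.598 and 2.48 TPM to 17.9 and 10.8 TPM by 2.08 ± 0.18 (SE, limma adjusted p = 4.96e-06). Snrpn rose by 1.31 ± 0.05 (SE, limma adjusted p = 1.85e-08), Ube3a by 0.21, and Mkrn3 (-0.07) was not called. Igf2, the fetal growth factor, was at 0.745 and 0.836 TPM in the naïve libraries and 5.61 and 9.02 TPM in primed ESCs, a rise of 2.19 ± 0.17 (SE, limma adjusted p = 2.77e-06). Igf2r, whose receptor removes IGF2 from the cell surface, went the other way: it stood at 13.99 and 14.6 TPM in the naïve libraries, 11.96 and 11.9 in those of AKO, 11.3 and 11.01 in those of DKO, 14.8 and 14.1 in those of GKO and 0.259 and 0.258 in the primed ones, with a difference of -3.60 ± 0.06 (SE, limma adjusted p = 1.86e-10), the largest fall of all members. Gatm, the first enzyme of creatine synthesis, rose from 0.071 and 0.127 TPM to 9.28 and 8.83 TPM by 3.19 ± 0.11 (SE, limma adjusted p = 1.43e-08). Like Magel2, it passed the filter only through primed ESCs.

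Dlk1 rose in primed ESCs by 2.75 ± 0.17 (SE, limma adjusted p = 4.11e-07) to 13.8 and 14.9 TPM and Peg3 by 1.93 ± 0.08 (SE, limma adjusted p = 5.1e-08) to 35.3 and 29.6 TPM. Slc22a18 rose by 1.22 ± 0.24 (SE, limma adjusted p = 0.00117). The falls were those of Igf2r, Plagl1, Sfmbt2, Cdkn1c, Mcts2, Zrsr1 and Copg2. Plagl1, a zinc finger factor that restrains growth, differed by -2.61 ± 0.46 (SE, limma adjusted p = 0.000616), and by -3.57 without primed replicate 1 and -1.65 without primed replicate 2. Sfmbt2, a polycomb-group protein, went from 3.58 and 3.52 TPM to 0.318 and 0.615 TPM by -1.64 ± 0.11 (SE, limma adjusted p = 1.02e-06). Cdkn1c differed by -1.16 ± 0.16 (SE, limma adjusted p = 0.000112). Mest, Slc38a4 and Impact, which were lower in GKO and DKO, were at 273 and 187, 69.2 and 73.3 and 133 and 104 TPM in primed ESCs and not called against naïve ESCs (0.24, -0.07 and 0.02). The primed libraries held a neural marker sum of 175 and 157 TPM, with Nes at 48.6 and 39.2 TPM, and an endoderm marker sum of 7.64 and 0.91 TPM, of which Sox17 made up 3.04 and 0.303 TPM. Their part in the member differences was not tested.

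The genes that keep, write or erase imprints were read as a list of 29, of which 27 were tested. In GKO 8 were higher and 6 lower, in DKO 7 were higher and 5 lower, in AKO limma called 0, and in primed ESCs 7 were higher and 19 lower. The share over all genes was 51.7% in GKO, 46.0% in DKO, 0.224% in AKO and 80.0% in primed ESCs, so that 14 of 27 in GKO and 12 of 27 in DKO are near the background. Zfp57, which encodes the reader of methylated imprints, stood at 197 and 206 TPM in the naïve libraries, 207 and 226 in those of AKO, 230.0 and 251 in those of DKO, 152 and 151 in those of GKO and 15.2 and 17.4 in the primed ones. GKO libraries were thus below and DKO libraries above the naïve ones, with differences of -0.41 ± 0.07 (SE, limma adjusted p = 0.00157) and 0.25 ± 0.07 (SE, limma adjusted p = 0.0198). The partners of ZFP57 are named here after their values were seen. Trim28 was lower in GKO by a small amount (-0.23, limma adjusted p = 0.0495). Zfp445, Setdb1 and Dnmt1 were not called in GKO (-0.11, -0.03 and -0.07). The largest change of the list in GKO was that of Dnmt3l, the cofactor of de novo methylation in germ cells, which was at 208 and 211 TPM in the naïve libraries, 161 and 172 in those of AKO, 198 and 207 in those of DKO, 59.2 and 53.2 in those of GKO and 0.209 and 0.115 in the primed ones. Its difference in GKO was -1.88 ± 0.07 (SE, limma adjusted p = 3.13e-07), and DKO (-0.04) was not called. Khdc3, a gene of the subcortical maternal complex of the oocyte, was higher in GKO by 0.96 ± 0.11 (SE, limma adjusted p = 0.000141), and Dppa3, which protects imprints in the zygote, was higher in GKO by 0.59 and in DKO by 1.35.

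In DKO, the de novo methyltransferases moved in opposite directions, with Dnmt3a at 9.4 and 9.27 TPM against 14.8 and 16.3 TPM in the naïve libraries (-0.68) and Dnmt3b at 41.02 and 41.3 TPM against 27.5 and 28.3 TPM (0.55). In primed ESCs both were higher (2.05 and 3.04). Zfp42 (-8.72), Dnmt3l (-7.50), Khdc3 (-4.94), Zfp57 (-3.55), Tet2 (-3.22) and Tet1 (-2.64) were lower there. Dnmt3a and Dnmt3b are also in the list of primed markers used to check the labels, and Zfp42 and Dppa3 in that of naïve markers. The differences of these genes in primed ESCs, which enter the counts of the list, are thus no separate result. A list of 41 genes that lie beside imprinted clusters or are imprinted in few tissues, of which 25 were tested, had 5 higher and 7 lower in GKO, 5 and 3 in DKO, 0 called by limma in AKO and 9 and 13 in primed ESCs. Of the 25, the 12 in GKO and the 8 in DKO lie near or below the same background. Mcts1, the X-linked parent of Mcts2, was lower in GKO (-0.85), as were Wdr25 (-0.71) and Wars (-0.62) beside Dlk1. Phactr2, beside Plagl1, was higher in GKO (0.54).

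**Figure D5:**
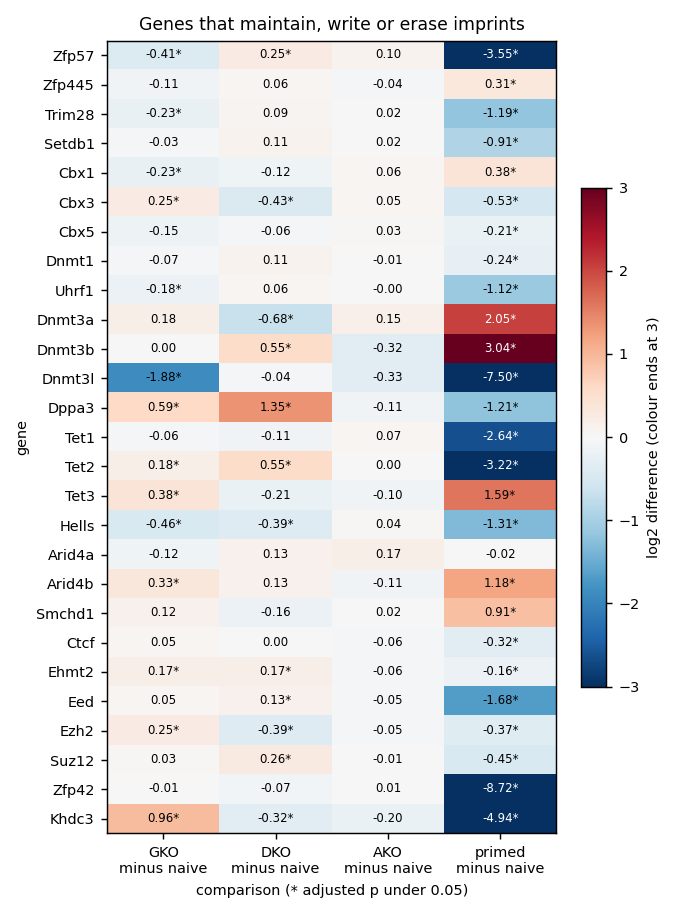
Difference from naïve ESCs on the log2(TPM + 1) scale of the 27 tested genes that maintain, write or erase imprints (rows), in GKO, DKO, AKO and primed ESCs (columns). Red is higher and blue lower, with colours that end at 3, and a star marks a call by limma. Dnmt3l (-1.88) is the largest change in GKO, and primed ESCs have the most calls.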

How the data were processed

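Bulk RNA sequencing covered 5 lines, 2 libraries per line, grouped by sample title. The authors trimmed, aligned and quantified the reads (processing notes: Trim Galore 0.6.6, STAR 2.7.9a, RSEM 1.3.3) and deposited TPM per protein-coding gene symbol for 21853 rows. TPM keeps no depth, so no counting interval was derived, and the RSEM strand setting is not given in the sources used here. The library kit was stranded per the labels. The members and lists were chosen with earlier results of these data known.

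Values were taken as log2(TPM + 1) for the 12060 genes that reached 1 TPM in 2 or more libraries, and tested with limma 3.58.1 in R 4.3.3 (1 mean per line, intensity trend, Benjamini-Hochberg adjustment over all genes tested within each of 7 comparisons). The pipeline was tested on simulated data. For 2 libraries against 2, an exact two-sided permutation p cannot go below 0.333. Members were named with statistics if called, with no overlap between the libraries and a difference of at least 0.5 (1 for primed ESCs), or if called in the interaction. The rule for the other lists was to name up to 8 genes by size. In the list of genes that keep, write or erase imprints more were named, among them the partners of ZFP57, after their values were seen. Genes were placed on GRCm39 by the GENCODE vM39 annotation (46 of 47 members matched by symbol, Zrsr1 did not). The deposited tables hold no coordinates. Neighbours are tested non-member genes within 2 Mb. Alternatives are given in the closing section. All value columns were used (0 were unmapped).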

Additional observations from a re-analysis of the deposited data

Results flagged for a closer look

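By the limma interaction test, the difference with loss of GYS1 differed between lines without and with the AMPK knockout for 13 of the 38 members (34.2%). Over all genes, 25.8% were called in the same term. With 2 libraries a line, no test for single libraries that stand apart was possible. The interaction is GKO minus naïve less DKO minus AKO, on the log2(TPM + 1) scale. In the Peg10-Sgce cluster, Peg10 had 1.34 ± 0.22 (SE, limma adjusted p = 0.00315), from 1.44 with AMPK and 0.10 without. Sgce had 0.75 ± 0.12 (SE, limma adjusted p = 0.00257), from 0.93 and 0.18. Pon2 had 0.80 ± 0.16 (SE, limma adjusted p = 0.00658), from 1.09 and 0.29. Ppp1r9a had 0.53 ± 0.11 (SE, limma adjusted p = 0.00701), from 0.40 and -0.13. Pon3 had 0.51 ± 0.12 (SE, limma adjusted p = 0.0153), from 0.91 and 0.40, a description, since it passed the filter only through GKO.

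In the Kcnq1 cluster, Cdkn1c had 1.34 ± 0.23 (SE, limma adjusted p = 0.0033), from 1.28 with AMPK and -0.07 without, and Cd81 had -0.42 ± 0.07 (SE, limma adjusted p = 0.00275), from 0.56 and 0.98. Gnas had 0.65 ± 0.06 (SE, limma adjusted p = 0.000238), from 1.09 and 0.44. Dio3 had -1.05 ± 0.18 (SE, limma adjusted p = 0.00392), from 0.43 and 1.48, next to a median of -0.62 over its 32 neighbours. Since Dio3 passed the filter only through DKO, its value is a description. For Mcts2 the term was -0.64 ± 0.12 (SE, limma adjusted p = 0.00532), from -0.23 and 0.42. For Snrpn it was 0.39 ± 0.07 (SE, limma adjusted p = 0.00402), from -0.26 and -0.65. The values of Copg2, 0.47 ± 0.13 (SE, limma adjusted p = 0.0284), and Ube3a, 0.24 ± 0.07 (SE, limma adjusted p = 0.0281), lost their calls in several of the alternatives below, as did that of Pon3. The neighbours of Copg2 had a median of 0.34 in the same term. Those of Gnas, Cdkn1c, Cd81 and Mcts2 had medians from -0.003 to 0.10. GKO and DKO libraries carry Y-linked mRNA and naïve and AKO libraries do not, so that this split lies across both differences of the interaction, and its part was not tested.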

How the results depend on the processing

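Of the 82 differences of named members, 74 kept their direction and their call in all 18 tested alternatives in which they had a value, and 0 reversed in them. The calls that were lost were those of Grb10 in GKO, Cdkn1c in DKO, Slc22a18 and Dlk1 between GKO and DKO, Dlk1 between DKO and AKO, and Pon3, Copg2 and Ube3a in the interaction. Pon3 lost it with a pseudocount of 0.1 (0.77, adjusted p = 0.0523) and without naïve replicate 1 (0.49), AKO replicate 1 (0.46), DKO replicate 1 (0.48) or GKO replicate 2 (0.49), with adjusted p from 0.0529 to 0.0598. Copg2 lost it with no filter and without each naïve, DKO and GKO library or AKO replicate 1 (0.40 to 0.49), and Ube3a lost it with no intensity trend and without naïve replicate 2, DKO or AKO replicates 1 and 2, or GKO replicate 2 (0.20 to 0.27).

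A filter at a mean of 5 TPM left 23 members and 8294 genes to test. With it 13 members were called in GKO (54.8% of all genes), 19 in primed ESCs (78.9%), 12 between GKO and DKO (46.0%) and 7 in the interaction (27.3%), and 17 genes of all in AKO. For AKO, the count over all genes was 13 with a pseudocount of 0.1, 8 with the replicate number as a block and 0 in a limma fit of the naïve and AKO libraries alone (2011 at an unadjusted p under 0.05). The block moved no other count by more than 1.5 times, and the numbers do not pair the libraries (deviations from the line means correlated from -0.13 to 0.08 over 10 pairs of lines, 0 of them over 0.1). The interaction was called for 21 members and 37.3% of all genes in a fit without the primed libraries. When 1 library was left out, the count for AKO ranged from 1 (without AKO replicate 1) to 126 (without primed replicate 2) genes and from 0 to 1 members, and that of the interaction from 1944 (without naïve replicate 1) to 4500 (without primed replicate 1) genes and from 10 to 22 members. With GKO, DKO and primed ESCs, members called ranged from 18 to 30, from 16 to 24 and from 28 to 33, and genes of all from 4581 to 7290, from 3983 to 6612 and from 8805 to 9616. Quantile normalization and median-ratio scaling changed no call of a named member. As an alternative chosen after seeing the data, the median of the neighbouring genes was subtracted. By this, 33 differences moved by no more than their limma standard error, 41 moved by more, and Dlk1 between GKO and DKO reversed, to 0.13. With the median of the chromosome, 23 moved by more and 59 by less. Lone libraries were assumed to vary like the other lines. TPM gives no depth, so that the precision of values near 1 TPM is unknown.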
